A study of Mus musculus with 6 samples.

Results

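The genes examined here encode the inhibitors of cyclin-dependent kinases (Cdks) and the retinoblastoma, or pocket, proteins, which together hold cells in the G1 phase of the cell cycle. A list of 10 genes was matched to the gene symbols of the array annotation, and a gene was read from its probe set with the highest mean. Probe sets with a single symbol were found for 9 of the 10 genes, of 19938 genes named on the array in this way. The gene without one was Cdkn1a, whose only probe set carries a second symbol. Testing needed values above 6.83, the 50th percentile of the table, on at least 2 of the 6 arrays, and 8 of the 9 genes met this. Of these 8, 7 passed on all 6 arrays and Cdkn2b on 5, so no gene passed through 1 group alone. Cdkn1c passed on 1 array and is given by its values only.

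Progression into S phase depends on cyclin D complexes with Cdk4 or Cdk6 and on cyclin E complexes with Cdk2, which phosphorylate the pocket proteins Rb, p107 and p130 and so release E2F transcription factors from them. The Ink4 inhibitors p16, p15, p18 and p19 bind Cdk4 and Cdk6, whereas the Cip and Kip inhibitors p21, p27 and p57 bind cyclin and Cdk complexes more broadly. Resting T cells are known for high p27, which is removed at the protein level after stimulation, and p18 is known to restrain T cell division.

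Total RNA of 6 samples was hybridised to Affymetrix arrays, 1 array per sample, and all samples were CD8+ T cells of female C57BL/6 mice (spleen) carrying the Pmel-1 T cell receptor transgene, which recognises the melanoma antigen gp100. The IL-12 group (2 arrays) was primed with gp100 for 4 days and stimulated with IL-12 for 6 days. The IL-2 group (2 arrays) was handled in the same way with IL-2, and the naive group (2 arrays) was sorted for CD8 and Thy1.1 straight from the spleen. The design set IL-12 against IL-2 priming to look for genes needed for activity against tumours in vivo. The labels leave unstated whether replicate arrays had their own mouse or culture, and p-values measure the spread between arrays, which may be technical. Values are log2 RMA values, differences are log2 fold changes with limma's standard error, and p-values were adjusted after Benjamini and Hochberg over 11147 tested genes.

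The CD8 identity of the cells was borne out by the markers, since all 7 CD8 T cell markers were found, with group means from 10.52 to 13.27, and Cd8a stood at 12.17 and 12.12 on the IL-12 arrays, 12.26 and 12.36 on the IL-2 arrays and 12.61 and 12.66 on the naive arrays. The summed linear level of these markers was 34465 to 35282 on the IL-12 arrays, 44150 to 45481 on the IL-2 arrays and 43382 to 47610 on the naive arrays. Of the 7, IL-12 cells had 4 called lower than IL-2 cells and 5 called lower than naive cells. Markers of other cells moved with the groups as well. The 6 B cell markers found, of 7 listed, had a summed linear level of 2150 to 2168 on the IL-12 arrays, 961 to 981 on the IL-2 arrays and 4217 to 4512 on the naive arrays, and all 6 passed the test in each comparison. Blk among them passed the filter through the naive arrays alone. The summed level of antigen-presentation genes followed the same order. The 6 MHC class II genes summed to 4052 to 4601 on the IL-12 arrays, 2042 to 2091 on the IL-2 arrays and 9228 to 9491 on the naive arrays. Of the 6, H2-DMa did not follow this order, with means of 9.9 in IL-12, 10.15 in IL-2 and 10.05 in naive cells. It was called in no comparison. The 7 myeloid and dendritic markers summed to 666 to 697 on the IL-12 arrays, 468 to 541 on the IL-2 arrays and 2091 to 2294 on the naive arrays. Itgam among them went the other way, with measured values in IL-12 cells higher by 0.95 against IL-2 and by 1.20 against naive cells. It passed the filter through the IL-12 arrays alone, so these differences are given with no test. Lyz2, Csf1r, Mpeg1 and Adgre1 were called lower in both primed groups than in naive cells, but passed through the naive arrays alone. The remaining lists were thinly measured, with 1 of 5 natural killer, 2 of 4 CD4 and regulatory T and 1 of 5 erythroid markers passing the filter. Of the natural killer list Eomes passed, at 10.26 and 10.07 on the naive arrays, while Ncr1, Klrb1c and Klra8 did not. Eomes was lower in IL-12 than in IL-2 cells and lower in both primed groups than in naive cells. Whether it reads natural killer cells here was not tested. The CD4 lineage factor Zbtb7b was higher by 1.54 in IL-12 and 1.87 in IL-2 against naive cells (limma adjusted p = 4.47e-05 and 2.15e-05), while Cd4 itself and Cd40lg did not pass the filter. These named markers were picked after their values were seen. No marker is listed at 0, and group means of the B cell, MHC class II and myeloid genes reached down to 5.03, whereas Y-linked genes in these female cells had group means of 3.32 to 4.96. The part of other cells in the results below was not tested, and in bulk RNA fewer cells of a type and less RNA per cell cannot be told apart.

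Both primed groups had higher transcript levels of most of these cell cycle brakes than naive cells. In IL-12 against naive cells, 6 of the 8 tested genes rose (Cdkn2a, Cdkn2b, Cdkn2c, Cdkn2d, Rb1 and Rbl1) and 1 fell (Cdkn1b). Over all tested genes 31.2% were called higher and 26.7% lower in that comparison, 57.9% in all, and the median log2 fold change was 0.74 over the 8 genes and 0.04 over all. In IL-2 against naive cells, 5 of the 8 rose (Cdkn2a, Cdkn2b, Cdkn2c, Rb1 and Rbl1) and none fell, where 25.8% of all genes were called higher and 19.9% lower (45.7% in all), with medians of 0.49 and 0.01. Between the primed groups (IL-12 against IL-2), 1 of the 8 rose (Cdkn2a) and 1 fell (Cdkn1b), where 20.8% of all genes were called (9.82% higher and 11.0% lower). That share is near the background, and the medians were -0.03 and 0.02. Arrays of the 2 groups did not overlap for 8 of the 8 genes in both comparisons with naive cells and for 6 of the 8 in IL-12 against IL-2 cells, where 79.2% (IL-12 against naive), 73.9% (IL-2 against naive) and 69.5% (IL-12 against IL-2) of all genes did not overlap. The comparisons with naive cells share the naive arrays. Antigen, cytokine and handling differ together between primed and naive cells, so their parts cannot be told apart. Centring each array on its median moved the share of all calls that were higher, which was 54.0% in IL-12 and 56.4% in IL-2 against naive cells, to 64.0% and 67.8% when centred over all probe sets and to 47.9% and 44.8% when centred over tested genes. The calls of these 8 genes kept their sign in every alternative setting that gave a value. Their number in IL-2 against naive cells was 3 without IL-2 replicate 2, and in IL-12 against IL-2 cells it was 4 without either naive array.

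**Figure D1:**
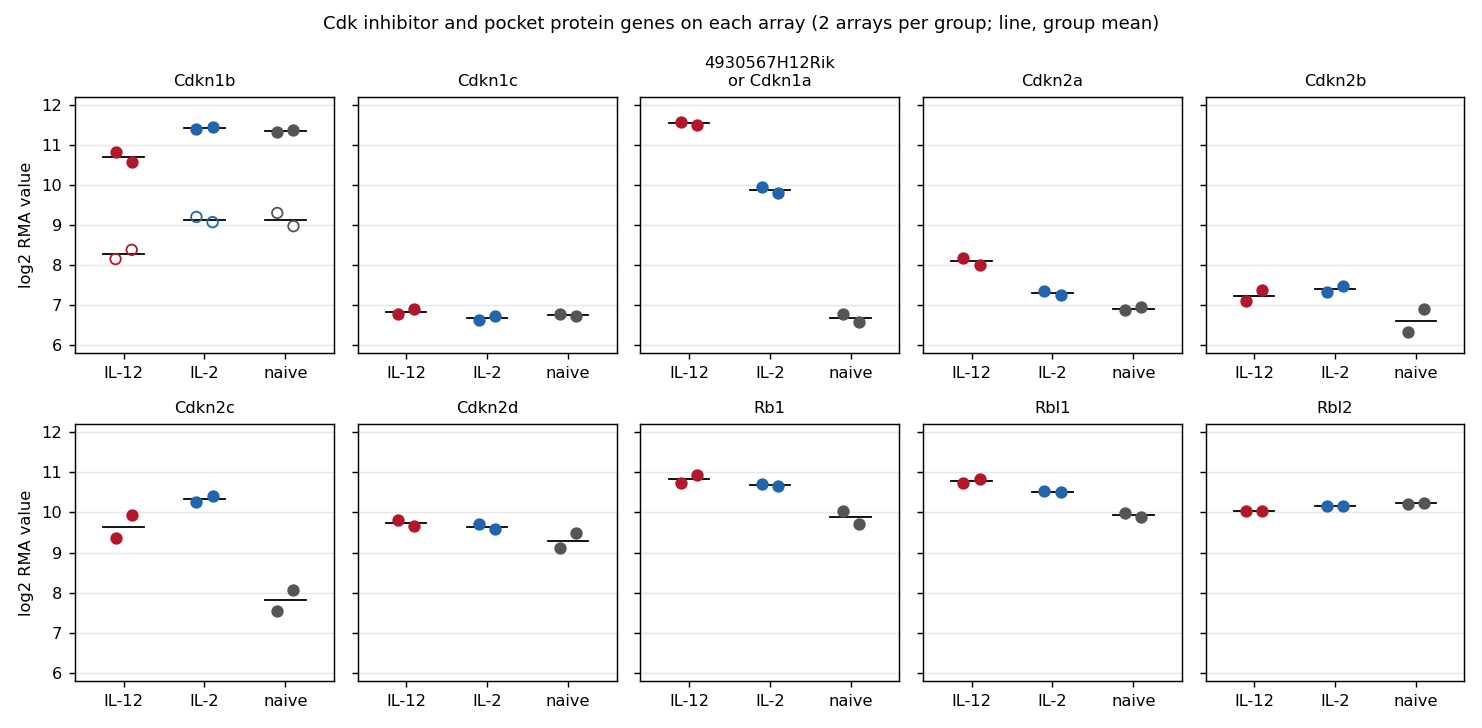
Log2 RMA value of each gene on every array, with 2 arrays in each of the IL-12, IL-2 and naive groups and a line at the group mean. Open circles are the second probe set of Cdkn1b, the panel named 4930567H12Rik or Cdkn1a shows the probe set with both symbols, and levels are comparable within a probe set, not between panels. Cdkn2c reads 7.54 and 8.07 on the naive arrays, below all 4 primed arrays, and Cdkn1b is lowest on the IL-12 arrays.

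Among the Cip and Kip genes, Cdkn1b, which encodes p27, was lower in IL-12 cells than in either other group. Its main probe set (10542310) stood at 10.82 and 10.57 on the IL-12 arrays, 11.39 and 11.45 on the IL-2 arrays and 11.32 and 11.37 on the naive arrays. Both IL-12 arrays lay below all 4 others, whose values were close together. The difference was -0.73 ± 0.11 in IL-12 against IL-2 cells, a 1.66-fold lower level (SE; 2 arrays in each group; limma adjusted p = 0.00306), and -0.65 ± 0.11 in IL-12 against naive cells (limma adjusted p = 0.00122). In IL-2 against naive cells it was 0.08 ± 0.11 with a 95% confidence interval of -0.18 to 0.34 (limma adjusted p = 0.61), and its sign turned to -0.016 with quantile normalization and to -0.0198 with centring over tested genes.

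A second Cdkn1b probe set (10542317), which matches the same RefSeq transcript, gave the same order. It stood at 8.15 and 8.38 on the IL-12 arrays, 9.20 and 9.07 on the IL-2 arrays and 9.30 and 8.97 on the naive arrays. Fitted over 13370 probe sets, it differed by -0.87 ± 0.14 in IL-12 against IL-2 cells (limma adjusted p = 0.00797) and by -0.87 ± 0.14 in IL-12 against naive cells (limma adjusted p = 0.00169), while its IL-2 and naive values overlapped. The tested genes most like Cdkn1b over the 6 arrays, by the root mean square difference of values centred on each gene's mean, were Lta, which encodes lymphotoxin alpha (0.06), and Ubash3b, a phosphatase that dampens T cell receptor signalling (0.0638). In IL-12 against IL-2 cells Lta differed by -0.61 and Ubash3b by -0.76 on the log2 scale.

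The Cdkn1b promoter is shown because Cdkn1b was the gene called lower, and forkhead factors of the Foxo group are known to activate it. The RefSeq window (GRCm38.p6, chr6:134920151-134920450, plus strand) covers 250 bases before to 50 after the transcript start, 5′ to 3′, and capitals would mark a match to any of the searched words.
Cdkn1b: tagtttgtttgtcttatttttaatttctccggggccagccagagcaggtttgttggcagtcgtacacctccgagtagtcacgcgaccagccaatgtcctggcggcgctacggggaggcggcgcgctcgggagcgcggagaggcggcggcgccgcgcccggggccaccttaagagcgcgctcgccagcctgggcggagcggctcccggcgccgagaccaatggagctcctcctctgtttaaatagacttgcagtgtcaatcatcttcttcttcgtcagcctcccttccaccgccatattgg
Neither forkhead word searched, TGTTTAC or TGTTTGC on either strand, occurs in these letters. Among all 32851 such mouse windows 8.48% hold one, and 0 of the 11 windows of 8 members with an entry do.

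Cdkn1c, which encodes p57, stood at 6.77 and 6.90 on the IL-12 arrays, 6.63 and 6.72 on the IL-2 arrays and 6.77 and 6.72 on the naive arrays. The spread over all 6 arrays was under that between replicates of several other members, and the mean lay at the 48.2 percentile of all probe sets. The files give no detection call, so it was not settled whether these values lie above background.

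The probe set that carries the symbols Cdkn1a and 4930567H12Rik (10443463) had the steepest differences of any probe set named for a member, but it cannot be assigned to Cdkn1a alone by its annotation. Cdkn1a encodes p21, a Cdk inhibitor activated by p53, and 4930567H12Rik is a long noncoding RNA gene. The accessions listed for the probe set include both RefSeq transcripts of Cdkn1a (2 of 2), which lies on chromosome 17, and not the transcript of 4930567H12Rik (0 of 1), which lies on chromosome 8. It stood at 11.57 and 11.50 on the IL-12 arrays, 9.94 and 9.80 on the IL-2 arrays and 6.77 and 6.58 on the naive arrays. The groups did not overlap, and the naive arrays lay below the filter value, so the probe set passed the filter through the primed arrays alone. With such probe sets kept as units of their own, the difference was 1.67 ± 0.11 in IL-12 against IL-2 cells, 3.18-fold (limma adjusted p = 5.96e-05). Against naive cells the measured values were 4.87 higher in IL-12 and 3.19 higher in IL-2 cells on the log2 scale. These 2 differences are given with no test, since the probe set passed the filter only where it was high and its naive level was not shown to lie above background.

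Among the Ink4 genes, Cdkn2c, which encodes p18, showed the greatest rise of the tested members in primed against naive cells. Its probe set (10515090) stood at 9.36 and 9.93 on the IL-12 arrays, 10.25 and 10.41 on the IL-2 arrays and 7.54 and 8.07 on the naive arrays. All 4 primed arrays lay above both naive arrays, and both IL-12 arrays lay below both IL-2 arrays. Cdkn2c rose by 1.83 ± 0.21 in IL-12 against naive cells, 3.57-fold (limma adjusted p = 0.000111), and by 2.52 ± 0.21 in IL-2 against naive cells, 5.74-fold (limma adjusted p = 2.69e-05).

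The difference of Cdkn2c between the primed groups, -0.69 ± 0.21 with a 95% confidence interval of -1.17 to -0.20, lay just outside the threshold (limma adjusted p = 0.0525). It passed in several alternative settings, among them without IL-12 replicate 2 (-0.97, adjusted p = 0.0295) or without either naive array (adjusted p = 0.0263 each), and shrank to -0.40 without IL-12 replicate 1. Over the alternatives without a block the adjusted p ran from 0.0115 to 0.283. The tested genes most like Cdkn2c were Lxn, which encodes the carboxypeptidase inhibitor latexin (0.121), and Plxdc2 (0.209). Lxn stood at 8.96 and 9.19 on the IL-12 arrays, 9.73 and 9.86 on the IL-2 arrays and 7.18 and 7.56 on the naive arrays.

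Cdkn2a encodes p16 and, from another first exon, the p53 activator Arf, and 1 probe set (10514340) reads the gene, so these transcripts were not separated. It stood at 8.18 and 8.0 on the IL-12 arrays, 7.35 and 7.26 on the IL-2 arrays and 6.87 and 6.95 on the naive arrays. The 3 groups followed each other with no overlap, IL-12 highest and naive lowest. The mean of Cdkn2a lay at the 59.1 percentile of all probe sets. Its naive values lay just above the filter value, and it was not settled whether they lie above background. Cdkn2a rose by 0.78 ± 0.11 in IL-12 against IL-2 cells, 1.72-fold (limma adjusted p = 0.00171), and by 1.17 ± 0.11 in IL-12 against naive cells, 2.26-fold (limma adjusted p = 2.86e-05). The rise of 0.39 ± 0.11 in IL-2 against naive cells (limma adjusted p = 0.0174) was lost without IL-2 replicate 1 (0.35, adjusted p = 0.125) or IL-2 replicate 2 (0.43, 0.0653), within a range of 0.0107 to 0.125 over the alternatives without a block. The gene most like it was Aacs, acetoacetyl-CoA synthetase (0.0637), followed by Lonp1, a mitochondrial protease (0.0885).

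Cdkn2b, the neighbour of Cdkn2a on chromosome 4, encodes p15. It stood at 7.11 and 7.37 on the IL-12 arrays, 7.34 and 7.48 on the IL-2 arrays and 6.32 and 6.91 on the naive arrays. The primed groups overlapped each other and lay above the naive arrays, which stood apart from each other. The mean of Cdkn2b lay at the 54.2 percentile of all probe sets. Its naive values lay on either side of the filter value, and it was not settled whether they lie above background. The rise was 0.62 ± 0.19 in IL-12 against naive cells (limma adjusted p = 0.018) and 0.79 ± 0.19 in IL-2 against naive cells (limma adjusted p = 0.00775). Both calls changed when single arrays were left out. The first was 0.33 without naive replicate 1 (adjusted p = 0.0786), 0.50 without IL-12 replicate 2 (0.114), and the second was 0.50 without naive replicate 1 and 0.72 without IL-2 replicate 2 (0.0576). The adjusted p ran from 0.000989 to 0.114 for the first and from 0.000682 to 0.0576 for the second. In IL-12 against IL-2 cells Cdkn2b differed by -0.17 ± 0.19 (95% confidence interval -0.59 to 0.25; limma adjusted p = 0.565). Most like it were Hacd2, an enzyme of fatty acid elongation (0.0733), and Erp29, a chaperone of the endoplasmic reticulum (0.0817).

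Cdkn2d, which encodes the Ink4 protein p19, stood at 9.82 and 9.66 on the IL-12 arrays, 9.72 and 9.58 on the IL-2 arrays and 9.11 and 9.48 on the naive arrays. It rose by 0.44 ± 0.14 in IL-12 against naive cells (limma adjusted p = 0.0246), a call lost without naive replicate 1 (0.25, adjusted p = 0.109) or IL-12 replicate 1 (0.36, 0.137), within a range of 0.00302 to 0.137. Its difference in IL-2 against naive cells was 0.35 ± 0.14 (95% confidence interval 0.03 to 0.67; limma adjusted p = 0.0691), and it passed without naive replicate 2 (0.54, adjusted p = 0.00766), within a range of 0.00766 to 0.298. Between the primed groups it was 0.09 ± 0.14 (95% confidence interval -0.23 to 0.41; limma adjusted p = 0.708), with overlapping arrays. Most like it were Aph1a, a subunit of gamma-secretase (0.0186), and Aco1, the cytosolic aconitase (0.0323).

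**Figure D2:**
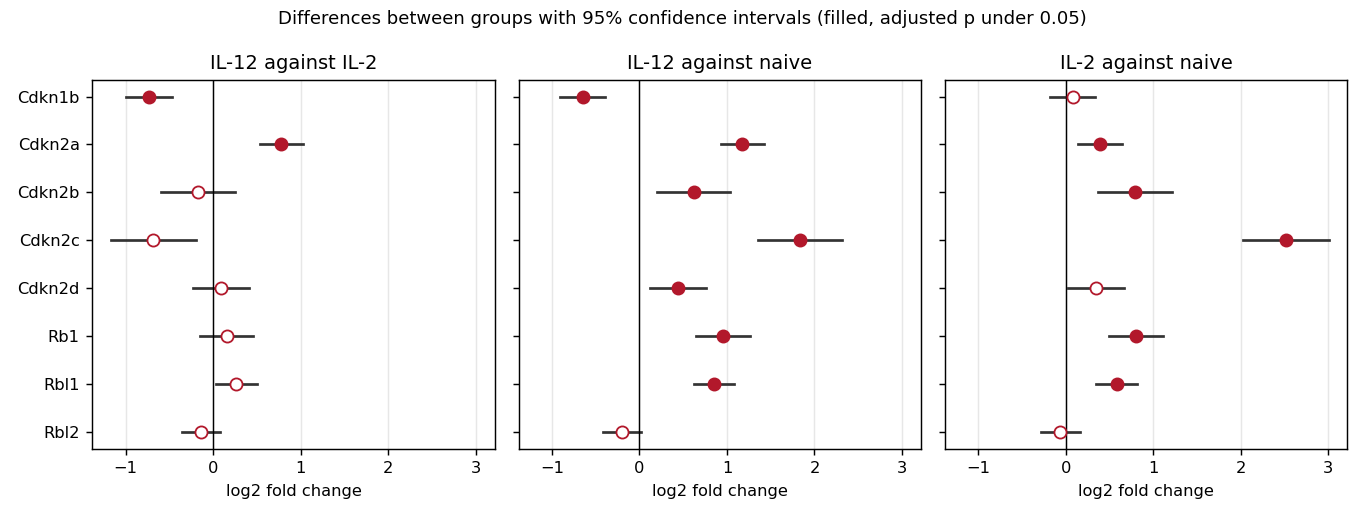
Log2 fold change of each tested gene in the 3 comparisons, with bars for the 95% confidence interval of the limma fit and filled points for an adjusted p under 0.05. Cdkn2c stands farthest to the right in both comparisons with naive cells (1.83 and 2.52), and in the panel of IL-12 against IL-2 the filled points are Cdkn1b and Cdkn2a.

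Of the pocket protein genes, Rb1 and Rbl1 were higher in both primed groups and Rbl2 was not called. Rb1 (probe set 10421526), the retinoblastoma gene, stood at 10.73 and 10.94 on the IL-12 arrays, 10.70 and 10.66 on the IL-2 arrays and 10.04 and 9.72 on the naive arrays. The naive arrays lay below the 4 primed arrays. Rb1 rose by 0.96 ± 0.13 in IL-12 against naive cells, 1.94-fold (limma adjusted p = 0.00034), and by 0.80 ± 0.13 in IL-2 against naive cells, 1.74-fold (limma adjusted p = 0.00148). Between the primed groups the difference was 0.16 ± 0.13 (95% confidence interval -0.15 to 0.46; limma adjusted p = 0.451). Ddx28, a mitochondrial RNA helicase (0.0671), and Echdc2 (0.0676) were most like it.

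Rbl1, which encodes p107 and is itself a known E2F target, stood at 10.74 and 10.84 on the IL-12 arrays, 10.53 and 10.51 on the IL-2 arrays and 9.99 and 9.88 on the naive arrays. As with Cdkn2a, the groups did not overlap, and IL-12 was highest. Rbl1 rose by 0.85 ± 0.10 in IL-12 against naive cells, 1.80-fold (limma adjusted p = 0.000137), and by 0.59 ± 0.10 in IL-2 against naive cells, 1.5-fold (limma adjusted p = 0.00182). Its difference between IL-12 and IL-2 cells of 0.26 ± 0.10 (95% confidence interval 0.03 to 0.50) did not pass (limma adjusted p = 0.101). It passed without either naive array (0.0495 each) and with array weights (0.0356), and over the alternatives without a block its adjusted p ran from 0.0356 to 0.4. Abcb8, a mitochondrial transporter (0.0186), and Cdc16, a subunit of the anaphase-promoting complex (0.034), were most like it.

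Rbl2, which encodes p130, the pocket protein known for its part in the repressor complex of resting cells, read 10.03 on both IL-12 arrays, 10.17 on both IL-2 arrays and 10.22 and 10.23 on the naive arrays. The replicates were nearly equal and the groups did not overlap, but the differences were small. They were -0.20 ± 0.10 in IL-12 against naive cells (95% confidence interval -0.42 to 0.02; limma adjusted p = 0.109), -0.06 ± 0.10 in IL-2 against naive cells (limma adjusted p = 0.663) and -0.14 ± 0.10 in IL-12 against IL-2 cells (limma adjusted p = 0.335). The first passed with quantile normalization (-0.28, adjusted p = 0.0403) and with centring over tested genes (-0.27, adjusted p = 0.0377), within a range of 0.0377 to 0.559, and the second turned to 0.04 with centring over all probe sets. Ttbk2, a tubulin kinase (0.0221), and Dcaf8, a substrate receptor of a ubiquitin ligase (0.0229), were most like it.

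Promoters of Cdkn2c, Cdkn2a and Rbl1 are shown because these genes rose in both primed groups and their windows hold a word of the E2F motif. The words searched on both strands were TTCCCGC and its variants TTGGCGC and TTCGCGC, along with TTGCCGC. The windows are from RefSeq (GRCm38.p6) and run 5′ to 3′, from 250 bases before to 50 after a transcript start, with the match in capitals. They lie at chr4:109666707-109667006, minus strand for Cdkn2c, at chr4:89294570-89294869, minus strand for the upstream start of Cdkn2a, which is that of Arf, and at chr2:157204485-157204784, minus strand for Rbl1.
Cdkn2c: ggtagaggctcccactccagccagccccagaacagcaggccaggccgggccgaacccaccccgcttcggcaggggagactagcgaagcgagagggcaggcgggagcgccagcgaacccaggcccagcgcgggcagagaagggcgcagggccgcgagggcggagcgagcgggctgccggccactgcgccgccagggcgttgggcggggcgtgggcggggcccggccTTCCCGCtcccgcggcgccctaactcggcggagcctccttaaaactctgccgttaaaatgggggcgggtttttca
Cdkn2a, upstream start: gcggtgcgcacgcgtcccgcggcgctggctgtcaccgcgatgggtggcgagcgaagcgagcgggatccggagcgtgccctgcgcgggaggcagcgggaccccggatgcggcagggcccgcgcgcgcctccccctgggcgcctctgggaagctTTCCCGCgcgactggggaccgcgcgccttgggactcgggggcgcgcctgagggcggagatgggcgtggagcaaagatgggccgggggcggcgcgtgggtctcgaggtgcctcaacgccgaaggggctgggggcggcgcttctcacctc
Rbl1: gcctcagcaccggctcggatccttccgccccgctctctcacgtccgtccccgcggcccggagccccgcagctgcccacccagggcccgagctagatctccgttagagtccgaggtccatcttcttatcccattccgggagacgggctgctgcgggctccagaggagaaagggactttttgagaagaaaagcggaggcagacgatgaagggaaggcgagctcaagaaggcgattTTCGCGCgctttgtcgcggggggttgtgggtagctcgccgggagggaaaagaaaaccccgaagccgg
The match begins 25 bases before the start in Cdkn2c, 98 before it in Cdkn2a and 17 before it in Rbl1. In all, 3 of 11 windows of the members held an E2F word, against 9.57% of all windows, and the second windows of Cdkn2c and Cdkn2a held none. The CHR words TTTGAA and TTCGAA, which mark late cell cycle genes, occurred in the windows of Cdkn2b and Rbl2, 2 of 11, against 19.2% of all windows. A match describes these letters only.

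**Figure D3:**
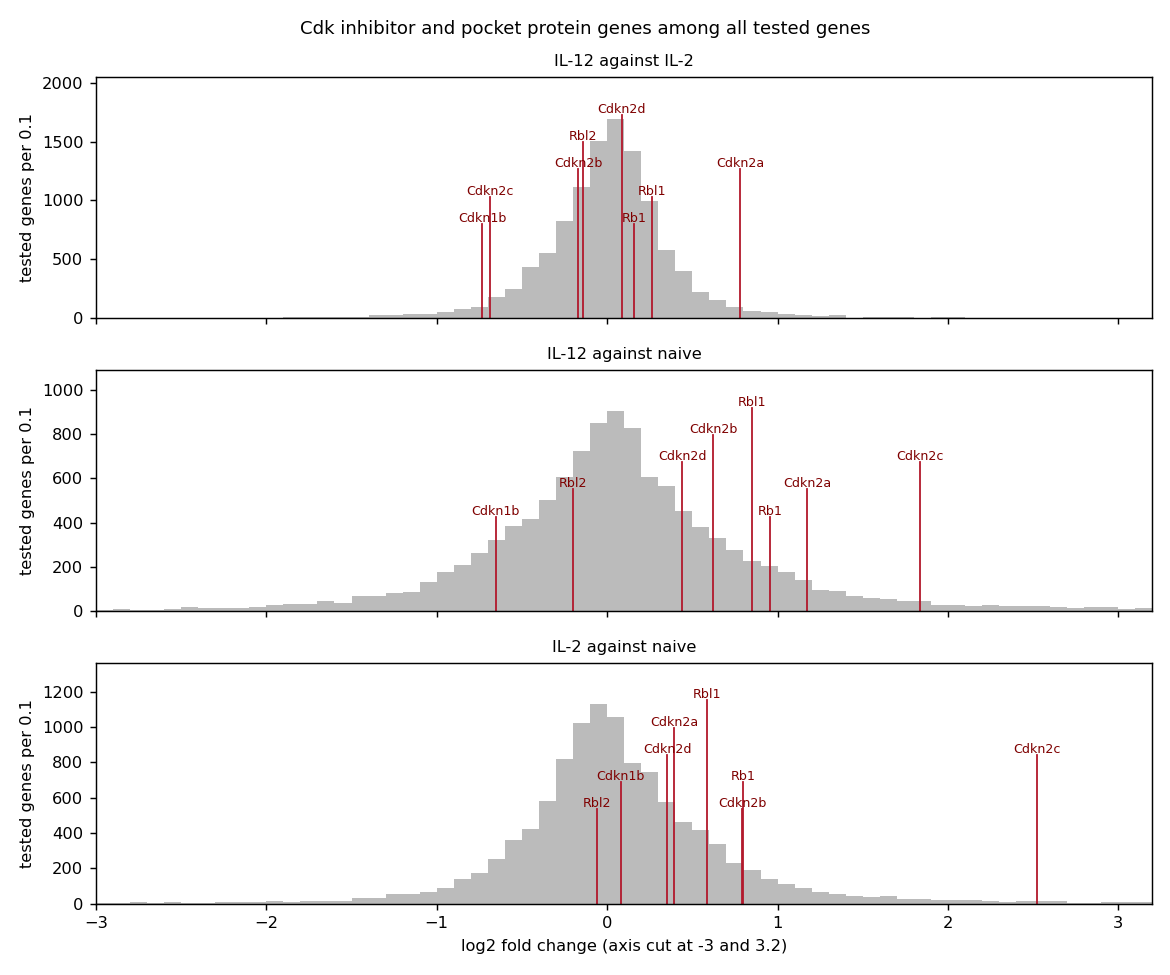
Distribution of log2 fold changes of all 11147 tested genes in 3 comparisons (grey, genes per bin of 0.1), with a red line at each Cdk inhibitor and pocket protein gene. In IL-12 against naive and IL-2 against naive cells most lines lie right of the medians of all genes (0.04 and 0.01), and in IL-12 against IL-2 cells Cdkn1b, Cdkn2c and Cdkn2a lie away from the centre.

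Genes listed beside these brakes moved as follows. Over all tested genes 31.2% were called higher and 26.7% lower in IL-12 against naive cells. In IL-2 against naive cells the shares were 25.8% and 19.9%. All 19 tested E2F target genes were called higher in IL-12 and in IL-2 against naive cells (medians 2.75 and 2.52). Of these, Gins1, a subunit of the replicative helicase, and Cdc6 passed the filter through the primed arrays alone. Their naive values, 5.31 and 5.45 for Gins1 and 5.76 and 6.15 for Cdc6, were not shown to lie above background. Measured values of Gins1 were 3.99 higher in IL-12 and 3.38 higher in IL-2 cells, given with no test. Of 11 G1 and S phase cyclins and Cdks, 9 rose and 1 fell in IL-12 against naive cells and 8 rose and 2 fell in IL-2 against naive cells. Ccne2 among them passed the filter through the primed arrays alone. Ccna2, cyclin A2, stood at 12.52 and 12.60 on the IL-12 arrays, 12.48 and 12.47 on the IL-2 arrays and 7.74 and 8.12 on the naive arrays. Ccnd2, which encodes a D-type cyclin that Ink4 proteins oppose, went the other way, with -0.54 ± 0.10 in IL-12 and -0.38 ± 0.10 in IL-2 against naive cells (limma adjusted p = 0.00187 and 0.0166), the second call being lost with centring over all probe sets (-0.28, adjusted p = 0.096), without IL-2 replicate 1 (-0.35, 0.113) or IL-2 replicate 2 (-0.40, 0.0748), within a range of 0.00424 to 0.113. Of 17 E2F, DP and MuvB genes, some of which bind the pocket proteins or share complexes with them, IL-12 against naive cells gave 15 higher and no lower calls. In IL-2 against naive cells 13 rose and 1 fell. E2f8, a repressor of the E2F family, rose 16.9-fold in IL-12 and 15.5-fold in IL-2 against naive cells. The exception was E2f5, known as a partner of p130, which fell by 0.68 in IL-2 against naive cells (limma adjusted p = 0.00182).

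Between the primed groups (IL-12 against IL-2), 7 of 19 E2F targets, 6 of 17 E2F, DP and MuvB genes and 4 of 11 cyclins and Cdks rose, and 1 E2F partner fell. The medians were 0.37, 0.22 and 0.29, against 0.02 over all genes, of which 9.82% were called higher and 11.0% lower. The counts changed with the arrays and settings used. When 1 array was left out, the difference of Mcm2, a helicase subunit, stayed between 0.65 and 0.76 (0.70 with all arrays), and that of Ccne2, which encodes cyclin E2, ran from 0.41 to 0.99 (0.70 with all arrays). For the E2F targets limma called 16 without either naive array, 1 without IL-2 replicate 1 and 0 without either IL-2 replicate 2 or the second IL-12 array, where 6 and 7 lay at an unadjusted p under 0.05. Calls among the E2F, DP and MuvB genes fell to 1 without IL-2 replicate 1 and to 2 without IL-2 replicate 2 or the second IL-12 array, and those among cyclins and Cdks to 2, 1 and 2. With all arrays, the 7 calls among E2F, DP and MuvB genes became 4 with no filter or with median centring. Ccnd3, which encodes cyclin D3, the D-type cyclin that lymphocytes depend on, had the lowest adjusted p of these 3 lists. It stood at 11.95 and 11.90 on the IL-12 arrays, against 11.06 and 11.10 on the IL-2 arrays, a difference of 0.84 ± 0.10 (limma adjusted p = 0.000797). Tfdp2, which encodes an E2F dimer partner, fell by 0.77 (limma adjusted p = 0.00218).

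Genes that act on p27 were examined beside Cdkn1b. Of 10 genes of p27 turnover and Foxo regulation, 4 rose and 3 fell in IL-12 against naive cells, and 3 rose and 2 fell in IL-2 against naive cells. With 57.9% and 45.7% of all genes called, these counts are near the background. Cks1b, the cofactor with which the ubiquitin ligase subunit Skp2 recognises p27, rose by 3.81 ± 0.12 in IL-12 and 3.65 ± 0.12 in IL-2 against naive cells (limma adjusted p = 5.25e-08 and 8.89e-08), and Skp2 by 1.12 ± 0.14 and 0.76 ± 0.14. Rnf123 of the same list went the other way, with -0.88 ± 0.13 and -0.43 ± 0.13 (limma adjusted p = 0.000486 and 0.0277). Its second call was lost in 4 of 18 alternatives. Foxo1, a forkhead factor known to activate Cdkn1b, stood at 10.94 and 10.80 on the IL-12 arrays, 11.42 and 11.44 on the IL-2 arrays and 11.84 and 11.91 on the naive arrays. It was lower by group in that order, with -1.0 ± 0.10 in IL-12 against naive cells (limma adjusted p = 5.51e-05) and -0.56 ± 0.10 in IL-12 against IL-2 cells (limma adjusted p = 0.00692). Foxo1 was also called in IL-2 against naive cells (-0.45 ± 0.10, limma adjusted p = 0.00754), where Cdkn1b was not (0.08 ± 0.11). That call was lost without IL-2 replicate 1 (-0.43). The call in IL-12 against IL-2 cells was lost without IL-2 replicate 1 (-0.57), without IL-2 replicate 2 (-0.54) and without IL-12 replicate 2 (-0.49). The differences stayed about as large there. Of the 10 genes 2 fell in that comparison, where 20.8% of all genes were called. With all arrays limma called 6 with array weights and 1 with no filter, quantile normalization or centring over tested genes. It called 4 without either naive array and 0 without either IL-2 array or without IL-12 replicate 2, where 4, 4 and 2 lay at an unadjusted p under 0.05. The 5 calls in IL-2 against naive cells became 2 without IL-2 replicate 1 and 3 without IL-2 replicate 2 or naive replicate 1.

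The list of p53 and its targets, the group to which Cdkn1a belongs, has 16 genes, of which Trp53 itself and Bax had no single-symbol probe set. Of the 14 tested, 8 rose and 2 fell in IL-12 against naive cells, 8 rose and 1 fell in IL-2 against naive cells, and IL-12 against IL-2 cells gave 4 higher and 2 lower calls (3 calls instead of 6 without either IL-2 array or without IL-12 replicate 2). The shares called over all genes were 57.9%, 45.7% and 20.8% in these comparisons. Phlda3, an inhibitor of Akt, read 9.40 on both IL-12 arrays, 8.49 and 8.74 on the IL-2 arrays and 7.38 and 7.49 on the naive arrays. Pmaip1, which encodes the pro-apoptotic protein Noxa, rose by 1.04 ± 0.12 in IL-12 against IL-2 cells (limma adjusted p = 0.000577). Sesn1, a stress-induced inhibitor of mTORC1 signalling, fell by 1.13 in the same comparison (limma adjusted p = 0.000351) and by 1.83 in IL-12 against naive cells. The genes of this list moved in both directions. Perp, counted as higher in both comparisons with naive cells, passed the filter through the primed arrays alone.

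Of 10 tested quiescence and antiproliferative genes, 1 rose and 7 fell in IL-12 against naive cells, none rose and 6 fell in IL-2 against naive cells, and IL-12 against IL-2 cells gave no higher and 4 lower calls. Over all genes 26.7%, 19.9% and 11.0% were called lower in these comparisons. Btg2, an antiproliferative gene of resting lymphocytes, stood at 10.39 and 10.04 on the IL-12 arrays, 11.08 and 11.37 on the IL-2 arrays and 11.86 and 11.70 on the naive arrays, and it fell by 1.01 in IL-12 against IL-2 cells (limma adjusted p = 0.00251). Foxp1, a factor that maintains naive T cell quiescence, fell by 0.68 in that comparison (limma adjusted p = 0.00237). Without IL-2 replicate 1 the calls in IL-2 against naive cells were 2, and without IL-2 replicate 2 those in IL-12 against IL-2 cells were 2.

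Polycomb proteins are known to silence the locus of Cdkn2a and Cdkn2b. Of 8 such genes, 3 rose and 3 fell in IL-12 against naive cells, 2 rose and 1 fell in IL-2 against naive cells (1 call without IL-2 replicate 1), and IL-12 against IL-2 cells gave 1 higher and 1 lower call. Over all genes 57.9%, 45.7% and 20.8% were called in these comparisons. Ezh2, the methyltransferase subunit, rose by 2.32 ± 0.14 in IL-12 and 2.18 ± 0.14 in IL-2 against naive cells (limma adjusted p = 1.87e-06 and 3.89e-06). Cbx7, a subunit that reads the methyl mark, stood at 9.51 and 9.40 on the IL-12 arrays, 10.25 and 10.27 on the IL-2 arrays and 10.56 and 10.29 on the naive arrays, and it fell by 0.80 in IL-12 against IL-2 cells (limma adjusted p = 0.00238). Eed, a subunit of the same complex as Ezh2, rose by 0.89 ± 0.14 in that comparison (limma adjusted p = 0.0036).

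**Figure D4:**
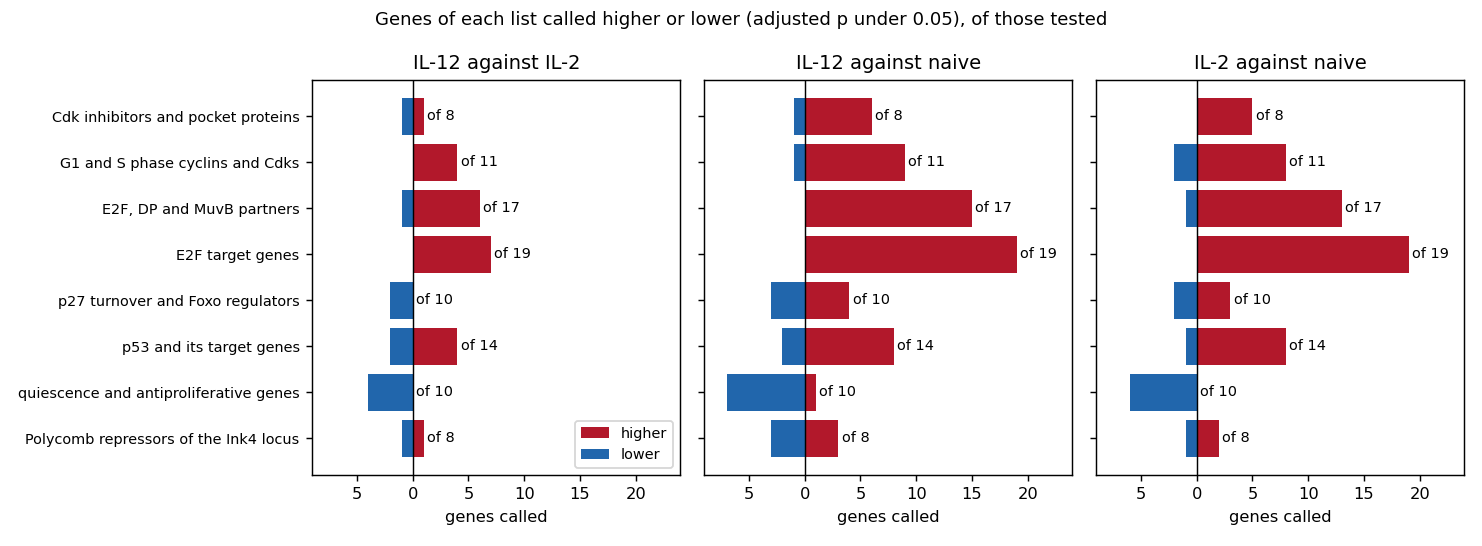
Number of genes of each list called higher (red, right of 0) or lower (blue, left of 0) at an adjusted p under 0.05, with the number tested beside each bar, in IL-12 against IL-2, IL-12 against naive and IL-2 against naive cells. All 19 E2F targets are higher in both comparisons with naive cells, and quiescence genes are mostly lower.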

How the data were processed

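RNA of 6 mouse CD8+ T cell samples was measured on Affymetrix arrays, with 2 arrays in each of 3 groups. The deposited values are on the log2 scale, and the submitters' processing notes name RMA. The RMA settings and genome build are not given in the sources used here. The table holds 35556 probe sets with values from 2.515 to 14.72 and array medians from 6.779 to 6.951. Of these, 21789 have 1 gene symbol in the platform annotation, 1621 several and 12146 none. Probe sets with several symbols named no gene, old symbols were updated by Entrez ID through RefSeq (GRCm38.p6, names only), and the probe set with the highest mean stood for a gene. Genes above the 50th percentile of all values on at least 2 of 6 arrays were tested.

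Differences came from limma's lmFit and eBayes (limma version 3.58.1, R version 4.3.3; all 6 arrays with a mean for each group, two-sided, Benjamini-Hochberg over 11147 genes, threshold 0.05), with 3 residual and 5.62 prior degrees of freedom. The number of arrays limits the precision. Alternatives changed the filter, the probe set per gene, the normalization, the variance model, the arrays and the block, and 2 (probe sets with several symbols kept, and centring over tested genes) were chosen after seeing the data. All member genes were to be named. Of each list at most 3 genes with the smallest adjusted p per direction and comparison were to be named, and for each tested member the 2 genes nearest to it. The members and lists were chosen with earlier results of these data known. Promoter windows came from RefSeq, which held no entry here for Cdkn1c and Rb1.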

Additional observations from a re-analysis of the deposited data

Results flagged for a closer look

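One signal lay in a probe set outside the comparisons of single genes. The probe set annotated with both Cdkn1a and 4930567H12Rik was 4.87 higher on the log2 scale in IL-12 than in naive cells, and it was left out of the counts of Cdk inhibitors because its annotation names more than 1 gene. Its 2 IL-12 arrays read 11.57 and 11.50, and its 2 naive arrays read 6.77 and 6.58. The naive arrays lay below the filter value of 6.83 and the primed arrays above it, so the probe set passed only where it was high, and the difference is given with no test.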

How the results depend on the processing

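Of 426 values of the 24 gene differences under 18 alternatives, 400 kept their direction and their side of the threshold, 7 lost the call, 16 gained it and 3 changed sign. The sign changes were those of Cdkn1b in IL-2 against naive cells with quantile normalization (-0.016) or centring over tested genes (-0.0198), and of Rbl2 in IL-2 against naive cells with median centring (0.0419). None of these was called. In IL-2 against naive cells centring moved the differences by a median of -0.0985 over tested genes and 0.0988 over all probe sets. The cause of the sign change with quantile normalization was not tested. For IL-12 against IL-2 cells, 2321 called genes became 3839 with array weights, 3533 with the groups compared only, and 737 to 3533 when 1 array was left out. The 2 called member genes became 1 with the filter at the 75th percentile, which leaves out Cdkn2a and Cdkn2b, 4 with array weights, 4 with the groups compared only, and 2 to 4 when 1 array was left out. In IL-2 against naive cells the 5095 called genes became 3341 to 5786 when 1 array was left out, and the 5 member genes became 3 with the filter at the 75th percentile and 3 to 6 when 1 array was left out. Of 378 list counts under these alternatives 35 moved by over 1.5 times. Leaving out an array leaves its group with 1 sample, which is assumed to vary like the other groups.

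Arrays of 2 groups share replicate numbers, and the deviations of same-numbered arrays correlated at 0.153 (IL-12 and IL-2), -0.0223 (IL-12 and naive) and 0.0152 (IL-2 and naive). With 2 arrays per group, these values cannot settle whether same-numbered arrays shared a mouse, culture or batch. With the replicate block, limma called 2414 genes in IL-12 against IL-2, 6471 in IL-12 against naive and 5128 in IL-2 against naive cells, and Cdkn2c in IL-12 against IL-2 cells gained the call (adjusted p = 0.00639, against 0.0525 without the block). Its replicate 1 array lay below its replicate 2 array in all 3 groups. With no detection calls, it was not settled whether the values of low genes such as Cdkn1c, or the naive values of Cdkn2a and Cdkn2b, lie above background.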
